A study of Mus musculus with 4 samples.

Results

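Described here are the 9 transcription factor genes Wt1, Pax2, Pax8, Lhx1, Emx2, Osr1, Gata4, Nr5a1 and Lhx9, chosen by symbol among the 32285 genes counted, and all 9 are present with the Ensembl identifier that the mouse annotation gives them. The study took cells of the aorta-gonad-mesonephros region (AGM) of C57BL/6J mouse embryos at E11.5, sorted for CD31, the surface protein encoded by Pecam1, and then on TMRM, which accumulates in mitochondria in proportion to their membrane potential and so reports it as fluorescence. The low fraction (MMPlow) and the high fraction (MMPhigh) are each represented by 2 single-cell libraries, and no other treatment or allele is named in the labels. The study asked which transcriptional differences accompany mitochondrial activity in cells of the AGM. Nothing in the labels says whether the 2 libraries of a fraction came from separate embryos, so p-values measure only the spread between these libraries.

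The AGM lies where the kidney and the gonad also begin. Its intermediate mesoderm forms the nephric duct and the mesonephric tubules, which depend on Pax2, Pax8 and Lhx1, with Osr1 in the earlier nephrogenic mesoderm and Emx2 in the duct and the ridge. The coelomic epithelium on its surface expresses Wt1, Gata4, Lhx9, Emx2 and Nr5a1 as it thickens into the gonadal ridge, and part of these genes have other known sites, such as Pax2, Pax8, Lhx1 and Lhx9 in interneurons of the spinal cord and Gata4 in endothelium of the liver sinusoids.

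After the filters on cells, 42225 cells were retained, with 15813 in MMPlow 1, 18606 in MMPlow 2, 4403 in MMPhigh 1 and 3403 in MMPhigh 2. The median depth of a retained cell was 3087, 3655 and 3685 unique molecular identifiers (UMIs, counted molecules) in the first 3 and 23605 in MMPhigh 2, which stands apart in depth. Each pair of libraries shared between 7 and 82 retained barcodes. Pecam1, the sorted marker, stood at 275 and 262 CPM (UMIs of the gene per 1000000 UMIs of the sum) in the MMPlow libraries and at 24.9 and 22.1 CPM in the MMPhigh libraries, so the MMPhigh libraries hold little of it. Cells were clustered without the 9 genes into 41 clusters, and 32 clusters took a class name from marker lists, written with "-like" since no other evidence of identity was used. Endothelial-like cells made up 48.4% and 47.0% of the MMPlow libraries and 0.363% and 0.411% of the MMPhigh libraries.

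Pax2, Pax8 and Lhx1 were the members with the highest log2 fold changes between the fractions. The paired-box factors Pax2 and Pax8 and the LIM homeobox factor Lhx1 act together in the nephric lineage, and Pax2, Pax8 and Lhx1 also mark inhibitory interneurons of the dorsal spinal cord. The stretches of 250 bases before the RefSeq starts of these 3 genes are shown because the genes moved together. They are from the GRCm38.p6 tables of RefSeq, written in the direction of transcription, with the CAGCTG palindrome, an E-box core, in capitals where it occurs. Of 3 Pax2 starts in the tables the one nearest the annotated gene start is shown, at chr19:44755502-44755751 on the plus strand, with Pax8 at chr2:24475600-24475849 on the minus strand and Lhx1 at chr11:84525535-84525784 on the minus strand.
Pax2: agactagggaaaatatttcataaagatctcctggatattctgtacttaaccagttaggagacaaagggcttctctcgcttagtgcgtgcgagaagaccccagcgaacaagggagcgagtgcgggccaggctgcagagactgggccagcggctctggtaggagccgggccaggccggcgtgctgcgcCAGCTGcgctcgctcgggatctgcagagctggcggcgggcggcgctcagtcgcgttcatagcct
Pax8: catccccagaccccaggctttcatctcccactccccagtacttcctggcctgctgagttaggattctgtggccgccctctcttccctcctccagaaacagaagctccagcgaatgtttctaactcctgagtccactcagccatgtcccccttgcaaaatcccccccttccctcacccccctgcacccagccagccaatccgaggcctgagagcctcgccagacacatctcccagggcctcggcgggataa
Lhx1: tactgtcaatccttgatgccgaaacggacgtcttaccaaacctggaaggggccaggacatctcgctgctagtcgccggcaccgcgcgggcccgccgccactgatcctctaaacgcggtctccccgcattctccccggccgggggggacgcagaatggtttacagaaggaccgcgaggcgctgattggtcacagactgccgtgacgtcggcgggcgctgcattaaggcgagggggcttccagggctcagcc

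Motifs of 5 kinds were searched on both strands, and the only match in these 3 stretches was the CAGCTG in the Pax2 stretch. CAGCTG is present in 4271 of the 32851 mouse promoter stretches of this length, the homeodomain core TAATTA in 4.84%, the paired-domain motif GTCACGC in 1.78%, the motif AGATAA of GATA factors in 9.99% and the motif AAGGTCA of NR5A receptors in 4.08%. The share of G and C was 60.8% in the Pax2 stretch, 60.4% in that of Pax8 and 64.8% in that of Lhx1, against a median of 52.4% over all stretches. The Lhx1 stretch also contains the start of Lhx1os, a long non-coding RNA on the other strand at chr11:84525660. In GENCODE vM21 on GRCm38, Pax2 spans chr19:44756045-44837871 and overlaps the antisense genes Gm20395 and 1700039E22Rik, Pax8 spans chr2:24420560-24475599 and overlaps Gm13415, and Lhx1 spans chr11:84518284-84525535. Whether the counting used strand is not given in the sources used here, so reads of overlapping genes may not be told apart.

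Summed over all retained cells, Pax2 stood at 7.26 CPM in MMPlow 1, 8.602 in MMPlow 2, 116 in MMPhigh 1 and 144 in MMPhigh 2. Both MMPhigh libraries were above both MMPlow libraries, with group means of 7.93 ± 0.952 and 129.8 ± 19.6 CPM (SD, n = 2). Pax2 rose with a log2 fold change of 4.06 (SE 0.1396, adjusted p = 4.202e-07, edgeR's quasi-likelihood test with Benjamini-Hochberg adjustment, MMPhigh over MMPlow). Pax8 stood at 2.54 and 2.43 CPM in MMPlow and at 32.6 and 40.6 CPM in MMPhigh, again with no overlap. Its log2 fold change was 3.92 (SE 0.1305, adjusted p = 2.66e-07, edgeR). Lhx1 stood at 12.9 and 11.2 CPM in MMPlow and at 103 and 137 CPM in MMPhigh, a log2 fold change of 3.36 (SE 0.146, adjusted p = 1.68e-06, edgeR). In this comparison 53.9% of the 20418 genes tested passed the threshold of 0.05, 27.3% upward and 26.5% downward, and 7 of the 9 members passed, 5 upward and 2 downward. In a sum over all cells, a change in the number of cells of a type and a change in RNA per cell cannot be told apart.

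**Figure D1:**
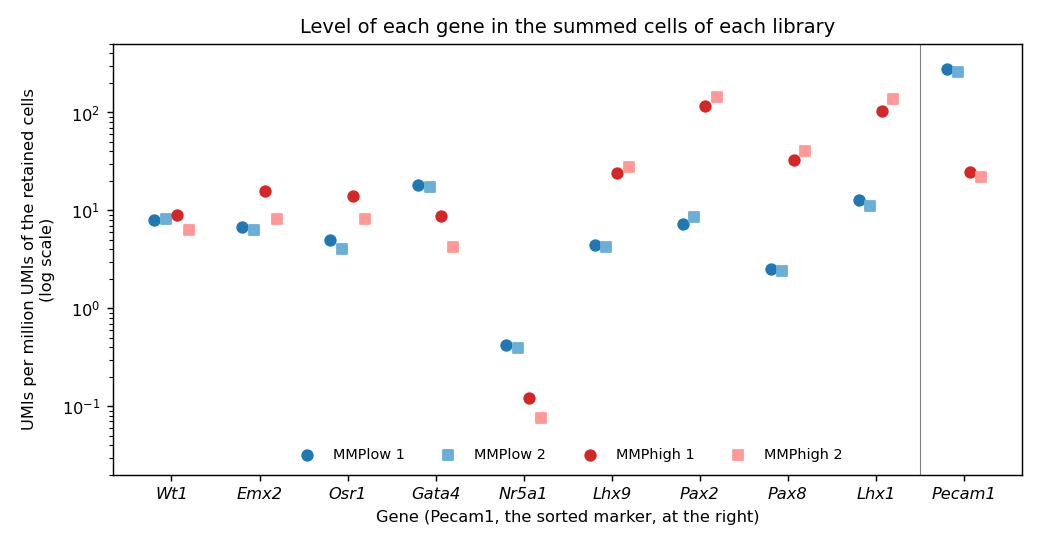
Level of each of the 9 genes and of Pecam1 in the summed retained cells of each library, in CPM on a log scale, with 1 point per library. Pax2, Pax8, Lhx1, Lhx9, Emx2 and Osr1 are higher in both MMPhigh libraries, Gata4, Nr5a1 and Pecam1 are lower in both, and the Wt1 points of the fractions overlap.

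The share of cells with a UMI moved in the same direction. Cells were thinned to 2000 UMIs each so that depth did not set the share. Pax2 was then found in 0.790% and 1.02% of MMPlow cells and in 10.2% and 11.2% of MMPhigh cells, Pax8 in 0.316% and 0.398% against 3.93% and 5.79%, and Lhx1 in 1.44% and 1.41% against 13.5% and 14.8%. None of the 9 genes was found in 92.7% and 92.6% of the thinned MMPlow cells and in 73.4% and 75.5% of the thinned MMPhigh cells.

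Most UMIs of these 3 genes came from neuronal-like cells. Of the Pax2 UMIs, 69.2%, 59.0%, 85.4% and 90.9% lay in that class in MMPlow 1, MMPlow 2, MMPhigh 1 and MMPhigh 2. The shares were 85.4%, 71.0%, 91.7% and 96.9% for Pax8 and 65.2%, 55.4%, 85.2% and 90.3% for Lhx1. Neural progenitor-like cells held a further 17.1%, 22.7%, 5.70% and 6.10% of the Pax2 UMIs. Neuronal-like cells were 1.86% and 1.67% of the retained MMPlow cells and 31.02% and 28.7% of the MMPhigh cells, a log2 fold change of 4.08 (SE 0.1998, adjusted p = 7.94e-05, edgeR on cell numbers). The call was kept under all 10 alternatives, with a log2 fold change of 3.12 at the coarser clustering resolution 0.5 and 3.32 in cells with at least 5000 UMIs. In that comparison of cell shares 84.6% of the 13 classes passed the threshold. The part of this shift in the sums of Pax2, Pax8 and Lhx1 over all cells was not tested as such, and the levels within the class follow.

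Within neuronal-like cells, Lhx1 stood at 350.2 and 319 CPM in MMPlow and at 316 and 394 CPM in MMPhigh, so the fractions overlapped, with a log2 fold change of 0.12 (SE 0.160, adjusted p = 0.753, edgeR). Pax8 stood at 90.7 and 88.9 CPM in MMPlow and at 107 and 126 CPM in MMPhigh (log2 0.40, SE 0.148, adjusted p = 0.169, edgeR). Pax2 stood at 209.7 and 261 CPM in MMPlow and at 355 and 417 CPM in MMPhigh. With a log2 fold change of 0.74 (SE 0.165, adjusted p = 0.0396, edgeR) Pax2 was the 1 member of 8 tested that passed in this class, where 2.86% of all genes tested passed, 0.862% upward. The Pax2 call was lost without MMPlow 1 (adjusted p = 0.376) and without MMPlow 2 (adjusted p = 0.246), and at resolution 2, a finer clustering (adjusted p = 0.0606), and in cells with at least 5000 UMIs its log2 fold change was 1.35. At resolution 0.5, where 22.1% of genes passed, Pax8 (log2 1.01), Lhx9 (log2 0.94) and Lhx1 (log2 0.48) were called higher too. The class holds other cells at that resolution, where no cluster was named neural progenitor-like. Pax8 and Lhx9 were also called at 5000 UMIs (log2 0.82 and 0.99), where 7.72% of genes passed, and stood at 0.50 and 0.53 without MMPhigh 1. Cluster 18 held 662 of the 1366 neuronal-like cells of MMPhigh 1 and few of the other libraries. Cluster 32 of this class, with 41, 35, 166 and 92 cells, had Afp, Rbp4, Apoa2 and Alb among its leading genes, beside Neurod1 and Isl1. At resolution 2 an unnamed cluster of 56 cells was led by Afp, with 43 of them from MMPhigh 1. Pecam1 was found in 25 of 125 and 35 of 189 thinned Pax2-positive cells of MMPlow 1 and MMPlow 2 and in 2.24% and 1.32% of those of MMPhigh 1 and MMPhigh 2. In cells without Pax2 it was found in 38.8%, 38.0%, 3.94% and 4.86% in the same order.

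Cluster 23, a neuronal-like cluster of 613 cells led by Cacna2d3, Adarb2, Nrxn3, Gad2 (an enzyme of GABA synthesis) and Slc6a5 (the neuronal glycine transporter), had the highest level of each of the 3 genes. There Lhx1 stood at 961, 829, 906 and 968 CPM in MMPlow 1, MMPlow 2, MMPhigh 1 and MMPhigh 2. Pax8 stood at 362, 309, 436 and 412 CPM and Pax2 at 824, 945, 1317 and 1258 CPM in the same order. None of the 3 ranges in cluster 23 overlapped that of the next cluster, with means over the 4 libraries of 1086 ± 239 CPM for Pax2, 380 ± 56.6 for Pax8 and 916 ± 64.1 for Lhx1 (SD, n = 4). In this cluster, where 9.38% of the genes tested passed and 3.88% did so upward, 1 member of 4 passed. It was Pax2, with a log2 fold change of 0.55 (SE 0.133, adjusted p = 0.0125, edgeR, and 0.0770 without MMPhigh 1, with a log2 fold change of 0.83 at 5000 UMIs), beside 0.36 for Pax8 (SE 0.145, adjusted p = 0.141) and 0.08 for Lhx1 (SE 0.135, adjusted p = 0.787). The cluster made up 0.506% and 0.505% of MMPlow cells and 3.50% and 8.37% of MMPhigh cells. This log2 fold change was 3.55 (adjusted p = 0.0121, edgeR), in a comparison where 68.3% of the 41 clusters passed, and it was not called without MMPlow 1 (adjusted p = 0.0755) or without MMPlow 2 (adjusted p = 0.0677). With 1 library left out the log2 fold change of this share ran from 2.79 to 4.05, without MMPhigh 2 and without MMPhigh 1.

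**Figure D2:**
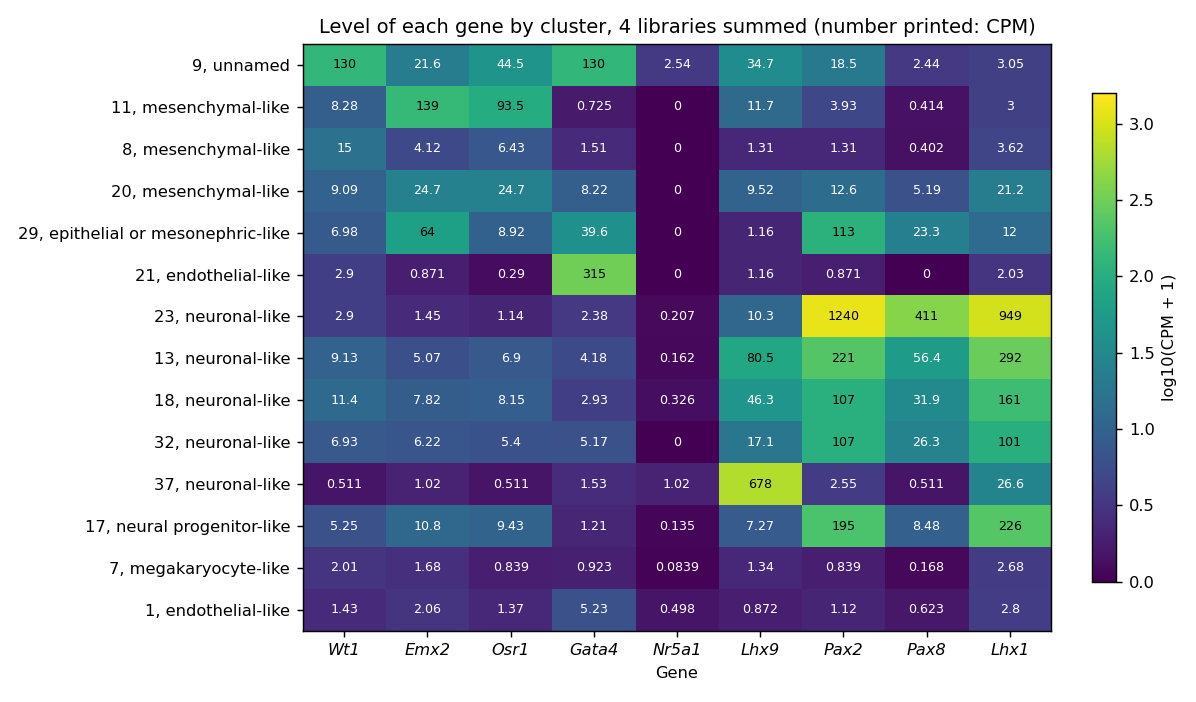
Level of each of the 9 genes in clusters of cells, as CPM printed in the cells of the map and log10(CPM + 1) as color, over all libraries. Pax2, Pax8 and Lhx1 peak in cluster 23, Wt1 in cluster 9, Emx2 and Osr1 in cluster 11, Gata4 in clusters 21 and 9, and Lhx9 in cluster 37.

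Single cells carried the 3 genes together. With all UMIs, 455 of the 613 cells of cluster 23 had Pax2, Pax8 and Lhx1, and over all cells 679 had the 3 together, 447 had Pax2 and Lhx1 without Pax8, and 1366 had Lhx1 alone. In thinned cells Pax2 and Lhx1 were found together in 640 cells against 121 that their shares in each library would give if independent, and Pax2 and Pax8 in 338 against 40.7. Both excesses were present in all 4 libraries. Of the cells with Pax2 and Pax8 when all UMIs are used, 64.0% lay in cluster 23. In cluster 13, another neuronal-like cluster with Nell2 among its leading genes, 308 of 1068 cells had Lhx1 without the other two. Lhx1 there stood at 295, 231, 269.5 and 300.1 CPM, and Pax2 at 18.8, 63.3, 211 and 235 CPM. Of 8 members tested in cluster 13, where 1.94% of genes passed upward, 3 rose and Lhx1 did not pass (log2 0.14, SE 0.143, adjusted p = 0.655). Pax2 rose (log2 2.37, SE 0.353, adjusted p = 0.0220, edgeR), with 3.60 without MMPlow 2, and was not called at 5000 UMIs (adjusted p = 0.0523). Pax8 rose (log2 1.49, SE 0.307, adjusted p = 0.0263), as did Lhx9 (log2 1.35, SE 0.219, adjusted p = 0.00854). Both calls were lost without MMPlow 1 or without MMPlow 2, and Pax8 stood at 2.33 without MMPlow 2. The log2 fold change of Lhx9 ran from 1.15 to 2.27 over 11 alternatives.

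In neural progenitor-like cells, led by Rfx4, Neurog2 and Pax3, Pax2 stood at 88.2 and 142 CPM in MMPlow and at 162 and 253 CPM in MMPhigh. Lhx1 stood at 139.8 and 186 CPM in MMPlow and at 173 and 284 CPM in MMPhigh, with overlap, while Pax8 was low at 4.58, 4.94, 5.37 and 12.02 CPM. None of the 5 members tested passed edgeR's test in this class, where 11.1% of genes did. At an unadjusted p under 0.05 there were 2, Osr1 (log2 1.59, adjusted p = 0.0876) and Pax2 (log2 0.89, adjusted p = 0.143), and DESeq2 also called 0. Pax2 and Lhx1 were called higher without a filter on low counts, with the replicate block and without MMPhigh 1 (log2 1.18 and 0.86). The difference between a member's change in these cells and in neuronal-like cells passed for 0 of 8 members, with 1 at an unadjusted p under 0.05 and 0.395% of genes passing, by edgeR alone.

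Free RNA was not measured, and macrophage-like cells served as a comparison for low values. In macrophage-like cells, which are not known to express Pax2 or Lhx1, Pax2 stood at 1.38, 0.790, 6.17 and 1.87 CPM and Lhx1 at 2.96, 2.51, 8.62 and 2.57 CPM in MMPlow 1, MMPlow 2, MMPhigh 1 and MMPhigh 2. Neither passed there, Pax2 with a log2 fold change of 2.099 (adjusted p = 0.0594, edgeR) and Lhx1 with 1.22 (adjusted p = 0.207), although 6 and 3 of 13 alternatives called them higher, the replicate block among them for both (adjusted p = 0.00281 and 0.0486). The log2 fold change ran from 0.33 to 2.79 for Pax2 and from 0.17 to 1.91 for Lhx1. The macrophage-like class is made of different clusters in different libraries, with 1082, 1169, 13 and 6 cells in cluster 5 and 212, 297, 665 and 157 in cluster 10. In mesenchymal-like cells Pax2 stood at 1.01, 0.404, 9.54 and 5.64 CPM and Lhx1 at 2.70, 2.16, 11.9 and 4.65 CPM. Both passed the test there, Pax2 with a log2 fold change of 3.50 (SE 0.519, adjusted p = 0.00133, edgeR) and Lhx1 with 1.81 (SE 0.485, adjusted p = 0.0365). The Lhx1 call was lost without MMPhigh 1 (log2 1.01, adjusted p = 0.0954), at resolution 0.5 (log2 0.86, adjusted p = 0.157) and with under 10% mitochondrial UMIs (adjusted p = 0.0642). In thinned mesenchymal-like cells of MMPhigh 1 and MMPhigh 2 Pax2 was found in 2.68% and 0.880%, against 3.17% and 0.336% of macrophage-like cells, with Lhx1 in 4.68% and 1.76% against 4.65% and 0.448%. The exact 95% intervals of the 2 classes overlapped for both genes in both libraries, which does not show that the shares are equal. For Lhx1 in MMPhigh 2 they ran from 0.648% to 3.79% in mesenchymal-like and from 0.122% to 1.14% in macrophage-like cells. The parts of free RNA and of doublets in both changes were not tested. Muscle-like cells, in which 1.59% of genes passed, 0.188% upward, had Lhx1 at 1.18, 2.35, 15.7 and 18.7 CPM (log2 3.25, SE 0.556, adjusted p = 0.0120, edgeR), and this call was lost under DESeq2, with the top doublet scores removed and without MMPlow 1, MMPlow 2 or MMPhigh 2. Cluster 38 held 12, 20, 74 and 22 of these cells, with Lhx1 at 41.7 CPM over all libraries, against 10.4 CPM in cluster 28.

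Pax2-positive cells of epithelial kind were few. Sub-cluster 29e, 35 cells led by Frmpd4, Pkhd1, Calb1, Tfcp2l1 and Sim1 within the epithelial or mesonephric-like cluster 29, held 9 cells with Pax2, of which 0, 3, 3 and 3 came from MMPlow 1, MMPlow 2, MMPhigh 1 and MMPhigh 2. All 9 also had Emx2 and Gata3, a factor of the nephric duct, 8 had Pax8 and 7 had Cdh16, a kidney cadherin. Another 15 cells of 29e had Gata4, and none of these had Pax2 or Emx2. Cluster 29 held 189, 213, 22 and 18 cells. Summed over them, Pax2 stood at 0, 18.6, 496 and 236 CPM, Emx2 at 9.90, 15.7, 223 and 155 CPM and Pax8 at 1.24, 5.87, 92.6 and 49.8 CPM, with both MMPhigh libraries above both MMPlow libraries for each gene.

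A test of this class with its 18 cells in MMPhigh 2 was added after the data were seen, and 6.63% of the genes tested passed upward in it. Of the 5 members tested, Emx2 rose (log2 3.84, SE 0.309, adjusted p = 7.44e-06, edgeR), Pax8 rose (log2 4.16, SE 0.541, adjusted p = 0.000226) and Lhx1 rose (log2 1.94, SE 0.548, adjusted p = 0.0327), the last lost under DESeq2, with the replicate block and when any 1 library was left out. Pax2 did not pass (log2 5.14, SE 0.978, adjusted p = 0.0745), but it passed upward under 5 of 12 alternatives, those with any 1 library left out and with under 10% mitochondrial UMIs. The log2 fold change ran from 4.26 without MMPlow 1 to 10.56 without MMPlow 2, where the remaining MMPlow library is at 0 and the fitted value depends on the prior count. Gata4 did not pass (log2 1.11, adjusted p = 0.718), and it passed upward without MMPhigh 1 (log2 2.097) and downward without MMPhigh 2 (log2 -7.45). The sub-clusters of cluster 29 also differ between libraries, with 56, 65, 2 and 1 cells in 29a, 11, 16, 4 and 4 in 29e and 9, 12, 12 and 2 in 29f. The 6 Pax2-positive cells of 29e in MMPhigh are among the cells of these sums. Their part in the changes and that of the makeup of the cluster were not tested.

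**Figure D3:**
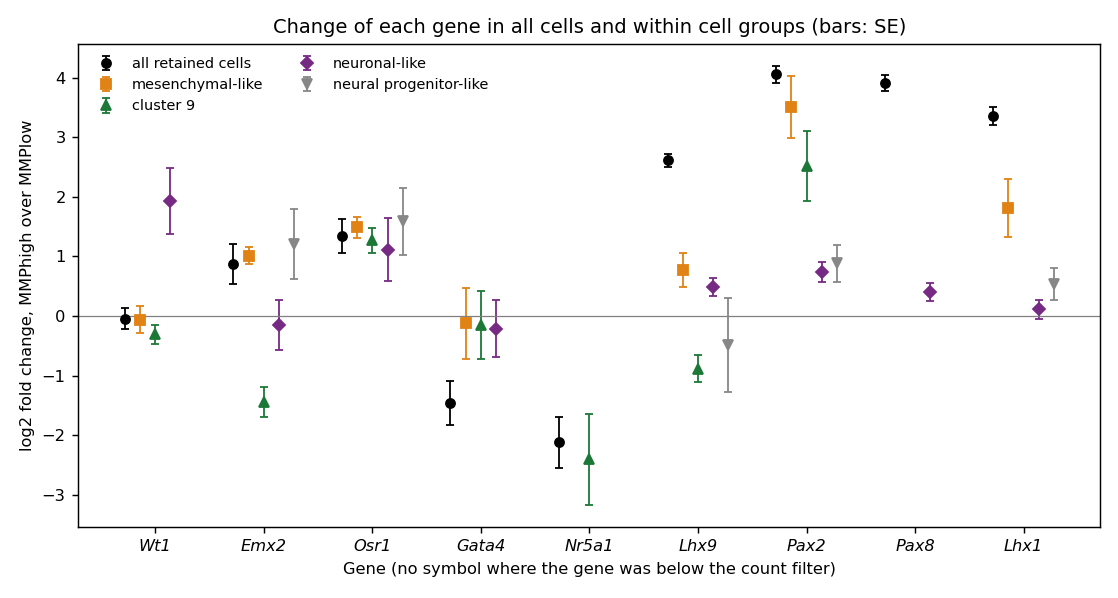
Log2 fold change, MMPhigh over MMPlow, of each of the 9 genes in all cells and within cell groups, with 1 symbol per group and bars of 1 standard error. Pax8 and Lhx1 stand at 3.92 and 3.36 in all cells and at 0.40 and 0.12 in neuronal-like cells, and Emx2 stands at 1.02 in mesenchymal-like cells and at -1.44 in cluster 9.

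Wt1, Emx2 and Osr1 are factors of the developing kidney and gonad. Wt1, a zinc finger factor needed for kidney and gonad formation, stood at 7.93 and 8.14 CPM in MMPlow and at 8.99 and 6.37 CPM in MMPhigh in the sums over all cells. The fractions overlapped, and the log2 fold change was -0.04 (SE 0.179, adjusted p = 0.852, edgeR), with no call under any of the 12 alternatives. In MMPhigh 111 and 230 of the Wt1 UMIs lay in neuronal-like cells, up to 34.1% of all, against 0.203% and 0.837% in MMPlow. Wt1 in that class stood at 0.672 and 3.51 CPM in MMPlow and at 9.67 and 6.93 CPM in MMPhigh and did not pass (log2 1.94, SE 0.553, adjusted p = 0.0926, edgeR, and called under 4 of 13 alternatives, with 3.64 without MMPlow 2 and 1.12 at resolution 0.5), beside 2.76, 0.923, 0.745 and 0.131 CPM in macrophage-like cells. The change of Wt1 in neuronal-like relative to mesenchymal-like cells passed (1.90 on the log2 scale, SE 0.553, adjusted p = 0.0436, edgeR), in a comparison where 6.81% of genes did, and it was lost without MMPlow 1 (1.15) or without MMPlow 2 (3.84). Emx2, a homeobox factor, stood at 6.77 and 6.38 CPM in MMPlow and at 15.7 and 8.17 CPM in MMPhigh (log2 0.88, SE 0.333, adjusted p = 0.0808, edgeR), and 4 of the 12 alternatives called it.

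Osr1, a zinc finger factor of early intermediate mesoderm, stood at 5.003 and 3.99 CPM in MMPlow and at 14.2 and 8.22 CPM in MMPhigh. Osr1 rose (log2 1.34, SE 0.292, adjusted p = 0.0113, edgeR), a call lost without MMPlow 2 (adjusted p = 0.0793). In thinned cells Emx2 was found in 0.955%, 1.05%, 2.02% and 1.76% of MMPlow 1, MMPlow 2, MMPhigh 1 and MMPhigh 2, and Osr1 in 0.753%, 0.758%, 2.20% and 1.53%.

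Emx2 and Osr1 shared their main site. Mesenchymal-like cells held 57.2%, 54.1%, 60.2% and 60.1% of the Emx2 UMIs and 53.7%, 44.3%, 55.5% and 49.8% of the Osr1 UMIs. In these cells Emx2 stood at 40.7 and 41.0 CPM in MMPlow and at 82.2 and 73.3 CPM in MMPhigh, and Osr1 at 28.2 and 21.05 CPM against 68.7 and 61.15 CPM, with no overlap for either. Both rose, Emx2 with a log2 fold change of 1.02 (SE 0.146, adjusted p = 0.00113, edgeR, and 0.60 at 5000 UMIs) and Osr1 with 1.49 (SE 0.176, adjusted p = 0.000289). With Pax2 and Lhx1 they make 4 of 7 members tested that passed upward, in a class where 12.8% of genes passed and 3.79% did so upward. Wt1 in the same cells stood at 12.2, 10.7, 11.2 and 9.44 CPM (log2 -0.06, adjusted p = 0.904), and Lhx9 did not pass (log2 0.78, SE 0.290, adjusted p = 0.110).

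The mesenchymal-like class is made of different clusters in different libraries. In MMPhigh 1, 378 of its 598 cells belonged to cluster 20, led by Fabp7, Twist1 and Meox1, whereas cluster 8, led by Col2a1, Sox9 and Pax9, was the largest in MMPlow with 679 and 713 cells. Cluster 11, led by Tmem132c, Prrx1 and Tbx15, had the highest levels of both genes, and Emx2 there stood at 123 and 123 CPM in MMPlow and at 198 and 129.8 CPM in MMPhigh. Within cluster 11 alone, where 3.97% of genes passed upward and 1 of 4 members did, Emx2 did not pass (log2 0.43, SE 0.177, adjusted p = 0.156, edgeR), with 0.76 without MMPhigh 2 (adjusted p = 1.18e-05) and -0.052 at 5000 UMIs (adjusted p = 0.929). Osr1, at 67.3 and 54.0 CPM against 159.6 and 98.3 CPM, rose (log2 1.10, SE 0.238, adjusted p = 0.0168, edgeR), a call lost at 5000 UMIs (adjusted p = 0.0532). Within cluster 8 Emx2 fell from 5.85 and 6.13 CPM to 0.715 and 1.25 CPM (log2 -2.44, SE 0.633, adjusted p = 0.0149, edgeR), 1 of 4 members in a cluster where 6.63% of genes passed downward. Those levels rest on 1 and 3 UMIs in MMPhigh, and the call was lost under DESeq2 and when any 1 library was left out. In thinned cells Emx2 and Osr1 were found together in 59 cells against 5.50 if independent, above that number in all 4 libraries, and with all UMIs 69.7% of such cells lay in cluster 11.

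Wt1 was centered on cluster 9, which stayed unnamed. The mesenchymal list scored highest there with 9 markers, but none of them was among the 10 leading genes, whereas the mesothelial marker Aldh1a2 was. This cluster held 570, 656, 80 and 127 cells, or 3.60%, 3.53%, 1.82% and 3.73% of the libraries, and was led by Unc5c, Nkain2, Aldh1a2, Ptn and Gata6. Wt1 there stood at 129, 159, 135 and 97.1 CPM, and this range did not overlap that of any other cluster. Its mean was 129.8 ± 25.3 CPM over the 4 libraries (SD, n = 4), and the log2 fold change between the fractions was -0.31 (SE 0.166, adjusted p = 0.290, edgeR, with -0.53 and 0.00304 without MMPhigh 1). A test of this cluster was added after the data were seen, and 3.91% of the genes tested passed upward in it and 7.59% downward. Of 7 members tested 3 passed, Osr1 upward and Emx2 and Lhx9 downward. Pax2 did not pass (log2 2.52, adjusted p = 0.0576, edgeR), and 5 of 11 alternatives called it higher, among them DESeq2 (adjusted p = 0.00186) and the replicate block (adjusted p = 0.00131). Its log2 fold change ran from 1.44 without MMPhigh 2 to 3.08 without MMPlow 2 (adjusted p = 0.2296).

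Osr1 in cluster 9 stood at 28.7 and 28.7 CPM in MMPlow and at 84.7 and 55.5 CPM in MMPhigh (log2 1.27, SE 0.208, adjusted p = 0.00162, edgeR). Emx2 stood at 30.8 and 29.6 CPM in MMPlow and at 13.1 and 9.54 CPM in MMPhigh (log2 -1.44, SE 0.249, adjusted p = 0.00206, edgeR), and DESeq2 gave 0.0525. Neither gene overlapped between the fractions, and they moved in opposite directions. The difference between the change of Emx2 in cluster 9 and its change in mesenchymal-like cells was itself tested, and it was -2.42 on the log2 scale (SE 0.252, adjusted p = 5.13e-06, edgeR), in a comparison where 1.16% of genes passed. Against cluster 11 alone, where 1.08% of genes passed, the difference was -1.80 (SE 0.228, adjusted p = 0.000344). Both kept their call when any 1 library was left out.

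Cluster 9 was divided further without the 9 genes, and its sub-clusters differed in which members they carried. Sub-cluster 9e, 131 cells with 63, 63, 2 and 3 from the libraries, was mesothelial-like, after the surface epithelium of the body cavity, by 6 of 10 markers, although none of these was among its leading genes and Msln was at 0. In its MMPlow cells Wt1 stood at 517 and 562 CPM, Gata4 at 388 and 427 CPM, Lhx9 at 284 and 358 CPM and Emx2 at 194 and 221 CPM. Sub-cluster 9f, 128 mesothelial-like cells with 65, 60, 1 and 2 from the libraries, led by Wdr17, Myl7 and Upk3b, had Wt1 at 233 and 287 CPM and Gata4 at 334 and 524 CPM in MMPlow, with Emx2 at 10.8 and 9.58 CPM. Thus both held Wt1 and Gata4, and 9e held the higher Emx2 and Lhx9 levels. Over all libraries Amhr2 and Inha, of the gonadal ridge list, stood at 80.4 and 41.8 CPM in 9e and 4.66 and 6.21 CPM in 9f. Gadd45g of that list stood at 78.7 CPM in 9e and 14.0 CPM in 9f. Star, Cbx2 and Six4 were the only genes of the list that were lower in 9e, Star on 2 UMIs there and 3 in 9f. The mesothelial marker Upk3b stood at 50.2 CPM in 9e and 199 CPM in 9f, and Tbx18 at 5.02 and 106 CPM. Every mesothelial marker found in these cells was lower in 9e except Tcf21, which is on both lists and was higher in 9e. Names were given without a gonadal marker list, so the name of 9e does not separate mesothelium from gonadal ridge.

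The remaining sub-clusters of cluster 9 were not mesothelial-like. Osr1 was highest in 9g, led by Nebl, Mgp and Rspo2, with 112, 184, 229 and 298 CPM, and in 9i, led by Barx1, with 139.7, 114, 470.5 and 170.1 CPM. Sub-cluster 9c, 192 cells with Eya1, a nephrogenic cofactor, among its leading genes, had Wt1 at 124, 112, 148 and 125 CPM. Pax2 there stood at 12.4, 34.3, 75.9 and 187 CPM, from 4, 15, 18 and 123 UMIs, and Emx2 was not found in its 192 cells. Mesothelial-like 9e and 9f made up smaller shares of MMPhigh libraries, with log2 fold changes of -2.50 (SE 0.633, adjusted p = 0.00210, edgeR) and -3.21 (SE 0.717, adjusted p = 0.000846), in a comparison where 35.0% of 20 sub-clusters passed. Neither call held without MMPlow 1, without MMPlow 2 or with the replicate block (adjusted p = 0.249 for both). Since 9e held most Emx2 of cluster 9 in MMPlow, its smaller share in MMPhigh moves with the lower Emx2 sum of the cluster, and its part in that fall was not tested.

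**Figure D4:**
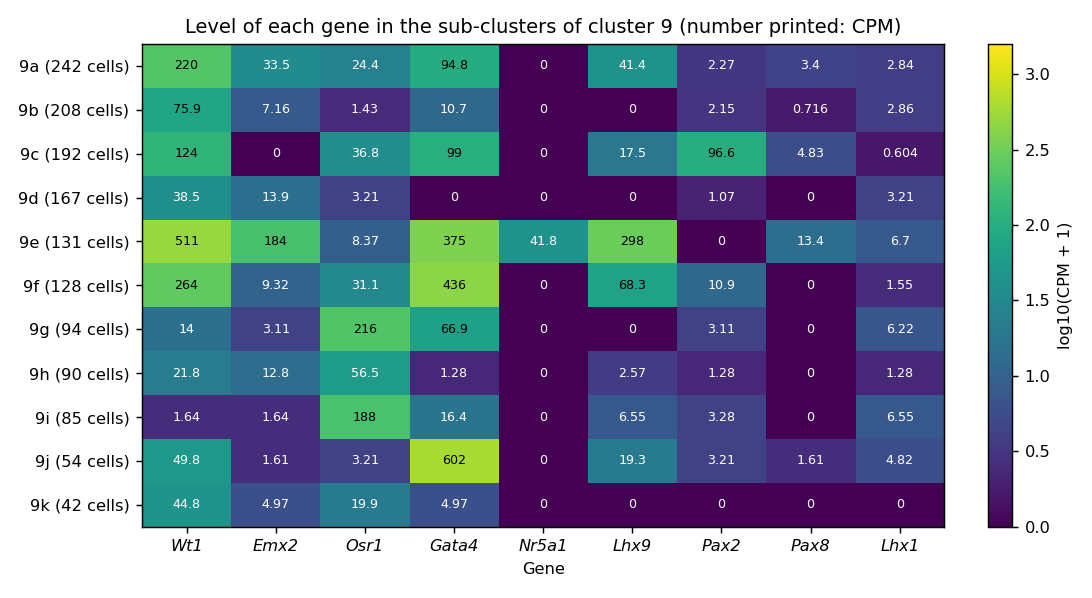
Level of each of the 9 genes in the 11 sub-clusters of cluster 9, as printed CPM and log10(CPM + 1) as color, over all libraries. Wt1, Emx2, Lhx9 and Nr5a1 are highest in 9e, Osr1 in 9g and 9i, Gata4 in 9j and Pax2 in 9c.

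Gata4, Nr5a1 and Lhx9 are factors of the early gonad. Gata4, a zinc finger factor needed for the thickening of the genital ridge, stood at 18.002 and 17.5 CPM in MMPlow and at 8.79 and 4.22 CPM in MMPhigh. Gata4 fell (log2 -1.46, SE 0.373, adjusted p = 0.0303, edgeR), and the call was lost without MMPlow 1 (adjusted p = 0.1297), without MMPlow 2 (adjusted p = 0.0986), at 5000 UMIs (adjusted p = 0.0546) and with the top doublet scores removed (adjusted p = 0.0635). Without MMPhigh 2 the log2 fold change of Gata4 was -0.97. Endothelial-like cells held 57.7% and 58.3% of its UMIs in MMPlow and 4.97% and 0.670% in MMPhigh, where that class had 16 and 14 cells. A test of that class, added after the data were seen, called 0 of 7 members, in a fit where 1.38% of genes passed. Cluster 21, endothelial-like and led by Stab2, Oit3 and Lyve1, which mark sinusoidal and lymphatic-type endothelium, had Gata4 at 308 CPM in 292 cells of MMPlow 1 and at 321 CPM in 354 cells of MMPlow 2. It made up 1.85% and 1.90% of MMPlow and 0.0454% and 0.0294% of MMPhigh cells, so Gata4 in these cells could not be compared between the fractions.

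Outside that cluster, cluster 9 held the most Gata4 UMIs in MMPlow (336 of 1119 and 461 of 1544), followed by endothelial-like cluster 2 (111 and 147). Gata4 in cluster 9 stood at 142 and 145 CPM in MMPlow and at 190.5 and 76.0 CPM in MMPhigh. The fractions overlapped, with a log2 fold change of -0.15 (SE 0.576, adjusted p = 0.915, edgeR). Gata4 was called lower without MMPhigh 1 (log2 -0.88, adjusted p = 4.49e-07) and higher without MMPhigh 2 (log2 0.44, adjusted p = 0.0274), so its direction there rests on 1 library. In thinned cells Wt1 and Gata4 were found together in 100 cells against 11.6 if independent, above that number in all 4 libraries, and with all UMIs 82.5% of such cells lay in cluster 9. Pecam1 was found in 33.8% and 37.8% of the Gata4-positive MMPlow cells, against 38.8% and 37.8% of the cells without Gata4, and in 22.0% and 16.7% of the Wt1-positive ones, against 38.9% and 38.1% of the cells without Wt1. In MMPhigh 0 of 52 and 0 of 33 Wt1-positive cells had Pecam1, which allows shares with a Pecam1 UMI at this depth of up to 6.85% and 10.6% (exact 95% limits, counting error only), limits above the shares of 3.82% and 4.51% in the cells without Wt1. Gata4 also passed in macrophage-like cells (log2 -2.46, SE 0.664, adjusted p = 0.0209, edgeR), 1 of 5 members in a class where 31.3% of genes passed and 14.9% did so downward. Its levels there were 3.16, 1.85, 0.640 and 0.220 CPM, and the call was lost under DESeq2, at resolution 2 and without MMPlow 1, MMPlow 2 or MMPhigh 2. The log2 fold change ran from -3.17 to -1.65 over 13 alternatives. Cluster 5 held 1082 and 1169 of the macrophage-like cells of MMPlow and 13 and 6 of those of MMPhigh. The parts of this makeup and of free RNA in the fall were not tested.

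Nr5a1, the nuclear receptor that directs steroid-producing cells of gonad and adrenal, was close to the limit of detection. It had 26, 35, 5 and 8 UMIs in MMPlow 1, MMPlow 2, MMPhigh 1 and MMPhigh 2, or 0.418, 0.397, 0.121 and 0.0755 CPM. It fell (log2 -2.12, SE 0.426, adjusted p = 0.00352, edgeR), a call kept under all 12 alternatives. In thinned cells it was found in 0.0696% and 0.0484% of MMPlow cells and in no MMPhigh cell, and counts of 0 allow shares of up to 0.0837% and 0.108% in MMPhigh 1 and MMPhigh 2 (exact 95% limits for cells with a UMI at this depth, not for cells that express the gene). Endothelial-like cells held 13 of the 26 and 16 of the 35 Nr5a1 UMIs in MMPlow at a level of 0.438 and 0.411 CPM. By level, cluster 9 was first, and within it all 25 UMIs lay in mesothelial-like 9e, where Nr5a1 reached 41.8 CPM. Of 20 thinned cells with Nr5a1, 7 also had Wt1, against 0.255 if independent.

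Lhx9, a LIM homeobox factor of the gonadal ridge that also marks dorsal spinal interneurons, stood at 4.46 and 4.199 CPM in MMPlow and at 24.2 and 27.7 CPM in MMPhigh. It rose (log2 2.62, SE 0.110, adjusted p = 7.07e-07, edgeR), with no overlap. In MMPlow 40.1% and 50.5% of its UMIs lay in unnamed clusters and 31.8% and 24.9% in neuronal-like cells, whereas in MMPhigh 86.1% and 90.8% lay in neuronal-like cells. Cluster 37, neuronal-like and with Lhx2, Barhl2 and Atoh1 among its leading genes, had the highest level, with Lhx9 at 500.1, 483, 659 and 730.4 CPM and its share of cells at 0.202%, 0.150%, 0.886% and 2.03%. Within cluster 37, where 4.62% of genes passed, Lhx9 did not pass (log2 0.51, SE 0.208, adjusted p = 0.192, edgeR), and over the whole neuronal-like class, at 59.2, 53.8, 74.7 and 80.2 CPM, it did not pass either (log2 0.49, SE 0.149, adjusted p = 0.111). Within cluster 9 the Lhx9 level was highest in sub-cluster 9e, which held 63, 63, 2 and 3 cells. The part of 9e in the change of Lhx9 in the cluster was not tested. In cluster 9 Lhx9 stood at 41.4 and 46.3 CPM in MMPlow and at 30.7 and 18.7 CPM in MMPhigh. It fell there (log2 -0.88, SE 0.226, adjusted p = 0.0220, edgeR), a call lost under 6 of 11 alternatives, which were DESeq2 (adjusted p = 0.316), the replicate block, 5000 UMIs and leaving out MMPlow 1, MMPlow 2 or MMPhigh 2 (log2 -0.49 without the last).

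**Figure D5:**
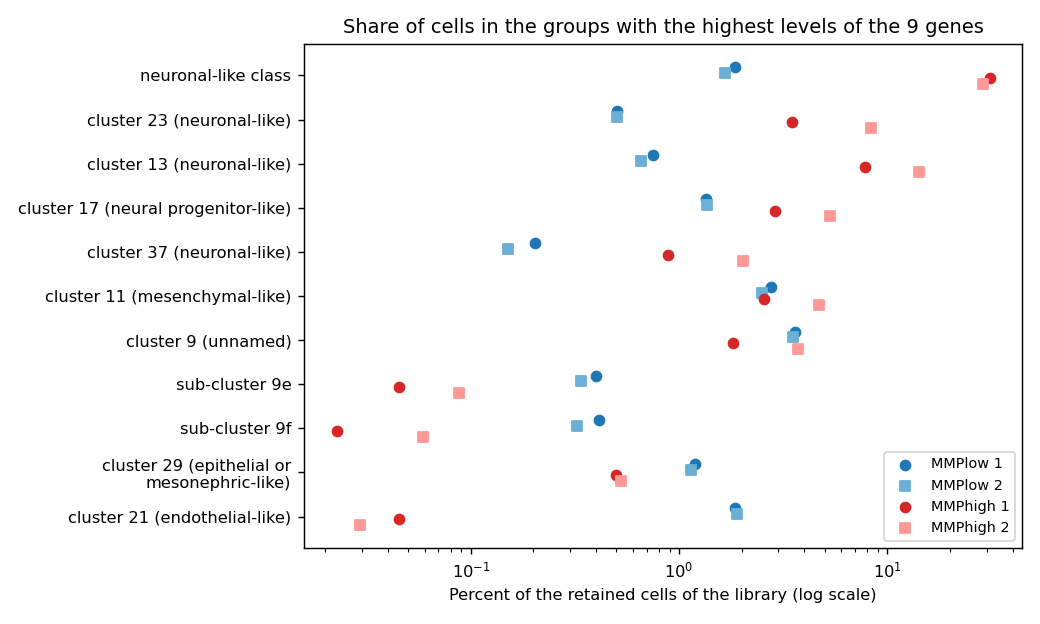
Share of the retained cells of each library in the classes, clusters and sub-clusters with the highest levels of the 9 genes, in percent on a log scale, with 1 point per library. Neuronal-like cells and clusters 23, 13 and 37 take larger shares of both MMPhigh libraries, cluster 21 and sub-clusters 9e and 9f smaller ones, and cluster 9 overlaps.

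The levels of the members across cell groups had close followers. Over 122 sums of a cluster in a library and 16381 genes, the highest Pearson correlations on log2(CPM + 10) with Lhx1 were those of Lhx1os (0.972), Lhx5 (0.970) and Cacna2d3 (0.928). Those with Pax2 were Pax8 (0.910), Lhx1 (0.906) and Lhx5 (0.895), and those with Pax8 were Slc6a5 (0.924), Gad1 (0.922) and Gm14204 (0.916). Wt1 was followed by Wt1os (0.881), Fendrr (0.826) and 5033428I22Rik (0.807), Emx2 by Emx2os (0.936), E330013P04Rik (0.924) and Pitx1 (0.810), and Osr1 by Pitx1 (0.867), Pdgfra (0.813) and Ccn4 (0.812). Lhx9 was followed by Lhx2 (0.897), Barhl2 (0.894) and Gm28050 (0.889), and Gata4 by Aebp1 (0.696), Gata6 (0.656) and C1qtnf1 (0.652). The points share libraries and clusters, so these values describe the data only, and Nr5a1 reached 10 CPM in no such sum and was not compared.

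Among antisense and neighbouring RNAs of the members, 2 of 3 rose in the sums over all cells, where 27.3% of all genes did. Emx2os, which overlaps Emx2 in the annotation, stood at 4.30, 3.73, 10.955 and 8.64 CPM (log2 1.32, SE 0.166, adjusted p = 0.000294, edgeR), and Lhx1os at 5.82, 4.91, 54.7 and 60.9 CPM (log2 3.47, SE 0.111, adjusted p = 2.37e-07). Wt1os did not pass, as Wt1 did not.

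The other genes of the pathways were read as lists from the same fit over all cells, beside a median log2 fold change over all genes of 0.01. Of 13 spinal interneuron genes tested 11 rose and 0 fell, with a median log2 fold change of 3.54. Examples were Lbx1 (log2 4.25, SE 0.282) and Slc6a5 (log2 4.08, SE 0.122), and Ptf1a (log2 1.64) and En1 (log2 2.23) had the smallest changes among those that rose. Of 18 nephric genes tested 11 rose and 1 fell, with a median of 1.26. Epithelial or mesonephric-like cells made up smaller shares of the MMPhigh libraries, 0.4997% and 0.5289% against 1.195% and 1.145% in MMPlow. The log2 fold change of this share ran from -1.505 to -1.113 over 10 alternatives. The list is read over all cells, and which cells carried its changes was not tested. Cdh16, the kidney cadherin, rose from 0.0161 and 0.0340 to 1.36 and 0.453 CPM (log2 4.94, SE 0.836, adjusted p = 0.00240, edgeR), Gfra1, the GDNF co-receptor, rose with a log2 fold change of 2.91, Bmp7 rose with 1.18, and Itga8 fell (log2 -0.25, SE 0.0888, adjusted p = 0.0399).

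Genes of the coelomic surface gave a mixed count. Of 9 mesothelium genes tested 2 rose and 4 fell (median log2 -0.76). The glycoprotein genes Muc16 (log2 -2.97, SE 0.430) and Upk1b (log2 -2.75, SE 0.387) fell, both from low levels. Muc16 stood at 0.467 and 0.533 CPM in MMPlow and at 0.0729 and 0.0566 CPM in MMPhigh. Upk1b stood at 0.627 and 0.794 CPM against 0.121 and 0.0944 CPM. Aldh1a2, the retinoic acid synthesis enzyme (log2 0.76, SE 0.190), and Tcf21 (log2 0.97, SE 0.332) rose. Of 13 gonadal ridge and adrenal genes tested 5 rose and 3 fell (median 0.00), with Gadd45g (log2 1.57) up. Cyp11a1, the first enzyme of steroid synthesis (log2 -2.11), and Zfpm2, the partner of Gata4 (log2 -2.01, SE 0.107), fell. Cyp11a1 was low, at 0.257 and 0.420 CPM in MMPlow and at 0.121 and 0.0566 CPM in MMPhigh. Zfpm2 stood at 442 and 491 CPM in MMPlow and at 112 and 114 CPM in MMPhigh. It was also among the leading genes of endothelial-like cluster 2, which held 1781 and 2010 cells of MMPlow and 2 and 3 of MMPhigh. Of 7 podocyte genes 3 rose and 3 fell (median -0.55), among them Ptpro (log2 2.38) and Synpo (log2 0.69) up and Podxl (log2 -2.29) down. These lists are read over all cells, against the 53.9% of all genes that passed, and which cells carried their changes was not tested.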

How the data were processed

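Whole-number UMI counts per gene and barcode were deposited by the authors for each library, with no normalization, as the values show. The kit was 10x Genomics 3' v3, per the labels' protocols. The file headers name Cell Ranger 7.0.1, whereas the submitters' processing notes name Cell Ranger 2.1.1 and mm10. The 9 genes and all lists were chosen with earlier results of these data known.

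Barcodes with at least 2000 UMIs, at least 1000 genes and under 25% mitochondrially encoded UMIs were kept, and doublets called by Scrublet in scanpy 1.11.5 were removed (887, 973, 0 and 83 in MMPlow 1, MMPlow 2, MMPhigh 1 and MMPhigh 2). The caller did not work in MMPhigh 1, so removing the top 6% of doublet scores was an alternative. Counts scaled to 10000 per cell were log-transformed, and 2000 variable genes without the 9 members, 30 principal components, 15 neighbours and Leiden resolution 1 gave the clusters. Of 14 marker lists, a cluster was named after the one with a mean log2 fold of at least 0.5 over other cells and a lead of 0.25, on at least 3 markers with 1 among the 10 leading genes, or 5 markers otherwise, and with no other list holding more of the 10 leading genes. These thresholds were set after the clusters had been seen.

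Sums of UMIs were formed for each library, and for each class with at least 20 cells in every library. Retained UMIs per library were 62158349, 88119861, 41168534 and 105934071. Sums were tested MMPhigh over MMPlow with edgeR 4.0.16 under R 4.3.3 (TMM, filterByExpr, robust quasi-likelihood F-test, two-sided, Benjamini-Hochberg over all genes tested), checked on simulated data. Shares of cells were tested likewise on cell numbers. CPM are the summed UMIs per 1000000 UMIs of the same sum. Intervals are exact, at 95%, and cover counting error only. Alternatives were DESeq2 1.42.0, RLE factors, no filter, the replicate number as a block, each library left out, stricter cell filters, all barcodes and other resolutions. Named list genes are the 2 largest and 2 smallest log2 fold changes among those that passed, and likeness names the 3 highest correlations. Some genes that these rules name are not reported here. Sub-clusters (resolution 0.5, 15 components), cluster sums, classes with at least 10 cells, their shares and the tests of differences between changes were added after the data were seen. The set of RefSeq GRCm38.p6 starts used here covered 5 of the 9 genes, and all 9 identifiers matched GENCODE vM21.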

Additional observations from a re-analysis of the deposited data

Results flagged for a closer look

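The change between the fractions differed between cell groups for 4 of the genes in edgeR's test of the difference itself, which was added after the data were seen. Sub-cluster 9e, with 63, 63, 2 and 3 cells in the libraries, held 110 Emx2 and 178 Lhx9 UMIs of cluster 9. Its part in the differences of cluster 9 was not tested. In cluster 9, 1.16% of genes passed relative to mesenchymal-like cells and 1.08% relative to cluster 11. Emx2 there changed by -2.42 on the log2 scale relative to mesenchymal-like cells (SE 0.252, adjusted p = 5.13e-06) and by -1.80 relative to cluster 11 (SE 0.228, adjusted p = 0.000344). Both calls held when each library was left out, with values between -2.54 and -2.28 and between -1.93 and -1.78. Lhx9 changed by -1.65 in cluster 9 relative to mesenchymal-like cells (SE 0.335, adjusted p = 0.0127), with -1.64 without MMPlow 1 or without MMPlow 2, where it did not pass (adjusted p = 0.0559 and 0.112), and -2.01 without MMPhigh 1 and -1.23 without MMPhigh 2, where it did. Without MMPhigh 2 the test also called Pax2 (-2.41, adjusted p = 0.0141), and without MMPhigh 1 that of cluster 9 against cluster 11 also called Lhx9 (-1.58, adjusted p = 0.0365).

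In neuronal-like relative to mesenchymal-like cells, where 6.81% of genes passed, Wt1 changed by 1.90 (SE 0.553, adjusted p = 0.0436, edgeR) and Pax2 by -2.82 (SE 0.604, adjusted p = 0.0381). Both differences rest on low MMPlow levels given above, of Wt1 in neuronal-like cells and of Pax2 in mesenchymal-like cells. Neither passed without MMPlow 1 (1.15 and -3.67, adjusted p = 0.405 and 0.165) or without MMPlow 2 (3.84 and -1.90, adjusted p = 0.139 and 0.444). Without MMPhigh 2 this comparison also called Lhx1 (-2.52, adjusted p = 6.47e-13), Pax8 (-2.99, adjusted p = 0.000946) and Emx2 (-1.42, adjusted p = 0.0288), so the count of members called depends on which libraries enter. Of 8 members compared between neuronal-like and neural progenitor-like cells 0 passed, with Gata4 alone at an unadjusted p under 0.05, and DESeq2 was not run on these differences.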

How the results depend on the processing

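With 2 libraries a fraction and 1 of them left out, the lone library is assumed to vary like the other fraction. In the sums over all cells 7 members passed, and Pax2, Pax8, Lhx1, Lhx9 and Nr5a1 passed under all 12 alternatives. Whether libraries with the same replicate number are paired is not given in the labels. The deviations of MMPlow 1 and MMPhigh 1 from their group means had a correlation of 0.119 over 20418 genes, which cannot settle it. With the replicate block 10816 genes and 8 members passed in the sums over all cells.

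Direction turned only for values that had not passed with the settings of the report, and some passed after it turned: Gata4 in epithelial-like cells and in cluster 9 without MMPhigh 2, and Emx2 in macrophage-like cells without MMPhigh 1 and at resolution 0.5. With each library left out in turn, Wt1 ranged from -0.31 to 0.21 on the log2 scale in all cells and from -0.20 to 0.14 in mesenchymal-like cells. Gata4 ranged from -1.27 to 0.72 in mesenchymal-like, -0.65 to 0.40 in neuronal-like and -7.45 to 2.097 in epithelial-like cells and from -0.88 to 0.44 in cluster 9. Emx2 ranged from -0.40 to 0.16 in neuronal-like and -2.08 to 1.25 in macrophage-like cells, where Osr1 ranged from -1.99 to 1.31. Lhx1 ranged from -0.054 to 0.26 in neuronal-like cells, Lhx9 from -2.22 to 0.57 in neural progenitor-like cells and the share of cluster 9 from -0.97 to 0.066. At 5000 UMIs Wt1 stood at 0.10 in all cells and 0.41 in mesenchymal-like cells, Gata4 at 0.75 in neuronal-like cells and 0.010 in cluster 9, Lhx1 at -0.13 in cluster 23 and Emx2 at -0.052 in cluster 11. Wt1 stood at 0.045 over all barcodes and at 0.016 in mesenchymal-like cells at resolution 2. In macrophage-like cells Emx2 stood at -0.21 and Osr1 at -0.12 with the replicate block, and Emx2 at -1.94 at resolution 0.5, where the mesenchymal-like share, which was 0.41, stood at -0.31.

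Counts of genes called moved in mesenchymal-like cells from 1825 to 1032 (DESeq2) and 959 to 3677 (leave-one-out), in neural progenitor-like cells from 1221 to 492 (DESeq2), 705 (5000 UMIs) and 35 to 2011 (leave-one-out), in cluster 9 from 1439 to 528, 761 and 486 to 2281, and in cluster 23 from 963 to 522, 349 and 517 to 1215 in the same order. With 1 library left out the counts were 571 to 1636 in cluster 8 (1145 with all), 664 to 1981 in cluster 11 (1361), 4 to 740 in cluster 13 (579), 14 to 206 in cluster 37 (277), 22 to 833 in muscle-like (160), 1538 to 5175 in macrophage-like (4289) and 628 to 1645 in epithelial-like cells (1144). In neuronal-like cells 414 became 1346 without a filter, 942 with the block, 1066 at 5000 UMIs, 3250 at resolution 0.5 and 34 to 1553 with 1 library left out. Members called there went from 1 to 3, 2, 3 and 5 in that order, to 0 at resolution 2 and to 0 to 3 with 1 library left out. In neural progenitor-like cells 0 became 3 without a filter, 3 with the block and 0 to 2 (leave-one-out), in cluster 23 1 became 4, 2 and 0 to 2, and 2 with the top doublet scores removed, and in cluster 9 3 became 2 to 6 (leave-one-out). Classes whose share passed, 11 of 13, numbered 6 to 13 with 1 library left out. Resolution 0.5 gave no neural progenitor-like fit. The causes were not tested.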
